A study of Mus musculus with 6 samples.

Results

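The proteasome genes were compared in bone marrow cell cultures grown from mice exposed to concentrated airborne particles (CAP) and from mice exposed to filtered air. The genes were chosen by name: every gene of the count table whose mouse symbol begins with Psma, Psmb, Psmc, Psmd or Psme and a digit, apart from the immunoproteasome genes Psmb8, Psmb9 and Psmb10, and with a total of at least 10 counts over the 6 libraries. The name matched 42 genes. Psmb11, the beta subunit of the thymus proteasome, held 4 counts, all in CAP 2, and fell below the minimum. This left 41 genes of the 14792 that reached 10 counts, in a table of 21965. Of the 41, 38 are broadly expressed subunits, dedicated assembly chaperones or activators of the proteasome, and 3, a testis-specific subunit, a near copy of an activator gene and a gene of another function, are described apart.

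Male C57BL/6J mice received at 11 weeks of age inhaled CAP, at a mean of 67 µg/m3, or HEPA-filtered air for 6 h per day over 30 days. Endothelial progenitor cells (EPCs) were then cultured from the bone marrow, for 12 days by the sample labels and 10 days by the methods, and polyadenylated mRNA was sequenced. There were 3 libraries for CAP and 3 for air, each from 1 mouse. The mice of a group shared 1 cage, so that exposure and cage cannot be told apart, and the sources name no other batch. Each library held between 28713206 and 30446171 counts. At this depth counting error was small, and the lowest count of any of the 38 genes in a library was 640, a counting coefficient of variation of 3.95%. The biological coefficient of variation over all genes was 26.3%. The cultures carried far more macrophage than endothelial marker mRNA. Counts divided by library size factors are called normalised counts throughout. The 12 macrophage markers summed to between 483927 and 607348 of them in CAP and between 667646 and 702317 in air. Lyz2 was a large part of each sum, with 297193, 288635 and 282568 in CAP against 360550.0, 377406 and 357985 in air. The log2 fold change of CAP over air was negative for 10 of these 12 and positive for 2, with a median of -0.23. The groups overlapped for Cd68, Adgre1 and Csf1r among others, and Fcgr1 was higher in every CAP library. The 12 endothelial markers summed to between 3012 and 3666 in CAP and between 3047 and 5604 in air, with Eng a large part of each sum. Their log2 fold changes were negative for 10 and positive for 2, Eng and Kdr, with a median of -1.07. Pecam1 had 159, 31.9 and 163 normalised counts in CAP against 177, 219 and 701 in air. Stromal marker mRNA was also far above endothelial. The 10 stromal markers summed to between 75948 and 159666 in CAP and between 158345 and 235225 in air. Of the markers of other marrow cells, Ly6g of neutrophils and Hbb-bs and Alas2 of red cells were at 0 in all libraries. The neutrophil markers summed to between 324 and 438 normalised counts in CAP and between 261 and 481 in air, and the erythroid markers to at most 25.7 in CAP and 15.2 in air. In bulk RNA, fewer cells of a type and less mRNA per cell cannot be told apart.

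The proteasome degrades proteins that carry a ubiquitin chain. Its barrel-shaped 20S core is built of rings of 7 alpha subunits (Psma genes), which gate the entry, around rings of 7 beta subunits (Psmb genes), of which 3 cut peptide bonds. The 19S regulatory particle sits on the barrel: its 6 ATPases (Psmc genes) unfold the substrate and pull it in, and its non-ATPase subunits (Psmd genes) bind ubiquitin, remove it and hold the particle together. The activators encoded by Psme genes can bind the barrel in place of the 19S particle. Macrophages and other immune cells exchange the cutting subunits for Psmb8, Psmb9 and Psmb10, which with Psme1 and Psme2 favour peptides for antigen presentation. Transcription of the subunit genes is known to be coordinated, in mammalian cells in part by NFE2L1, which binds antioxidant response elements.

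Promoter sequences are shown first because transcription of the subunit genes is known to be coordinated. RefSeq (GRCm38.p6) held a promoter for 34 of the 41 genes, among them 32 of the 38. The 250 bases before the start were searched on both strands for the core of the antioxidant response element (TGACNNNGC), the CCAAT box (CCAAT) and a core bound by ETS family factors (CCGGAAG). None of these letter patterns contains another. The antioxidant core occurred in 5 of the 32 genes (15.6%), against 11.5% of all 27025 genes with a promoter in RefSeq and 13.97% of those that reached 10 counts here. The CCAAT box occurred in 12 (37.5%), against 37.5% of all genes and 40.35% of those that reached 10 counts. The ETS core occurred in 11 (34.4%), against 7.8% of all genes and 14.23% of those that reached 10 counts. These shares are descriptions of the sequence, and a match is not evidence of binding. The 6 genes of lowest p in the comparison of CAP with air that held a match are printed below, upstream of the first base of the gene in GENCODE vM21, with the matched letters in capitals.
Psmd2 (chr16:20651402-20651651, plus strand): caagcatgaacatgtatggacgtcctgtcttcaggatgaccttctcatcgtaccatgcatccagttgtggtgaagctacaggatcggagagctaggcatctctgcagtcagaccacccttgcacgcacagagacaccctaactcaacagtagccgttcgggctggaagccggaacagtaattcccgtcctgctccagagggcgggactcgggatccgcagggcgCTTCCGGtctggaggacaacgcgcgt
Psmb3 (chr11:97703184-97703398, plus strand): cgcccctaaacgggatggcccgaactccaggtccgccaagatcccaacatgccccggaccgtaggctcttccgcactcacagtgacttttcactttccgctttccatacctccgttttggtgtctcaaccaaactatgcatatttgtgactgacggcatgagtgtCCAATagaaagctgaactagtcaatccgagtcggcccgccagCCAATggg
Psmb5 (chr14:54618023-54618245, minus strand): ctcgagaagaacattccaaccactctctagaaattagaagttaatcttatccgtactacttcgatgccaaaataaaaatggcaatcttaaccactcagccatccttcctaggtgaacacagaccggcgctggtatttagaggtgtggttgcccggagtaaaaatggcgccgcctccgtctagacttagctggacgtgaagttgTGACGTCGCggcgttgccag
Psmc2 (chr5:21785025-21785274, plus strand): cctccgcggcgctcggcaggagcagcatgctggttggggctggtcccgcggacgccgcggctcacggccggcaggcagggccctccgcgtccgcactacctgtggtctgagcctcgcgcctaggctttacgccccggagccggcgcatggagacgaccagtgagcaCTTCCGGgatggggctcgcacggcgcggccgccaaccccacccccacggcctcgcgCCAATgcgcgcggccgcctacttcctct
Psmd11 (chr11:80428365-80428614, plus strand): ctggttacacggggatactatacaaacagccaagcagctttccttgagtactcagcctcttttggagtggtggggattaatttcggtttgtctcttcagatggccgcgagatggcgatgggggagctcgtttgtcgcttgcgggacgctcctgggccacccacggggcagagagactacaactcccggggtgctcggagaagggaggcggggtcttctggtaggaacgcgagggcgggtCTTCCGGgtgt
Psmd12 (chr11:107479278-107479483, plus strand): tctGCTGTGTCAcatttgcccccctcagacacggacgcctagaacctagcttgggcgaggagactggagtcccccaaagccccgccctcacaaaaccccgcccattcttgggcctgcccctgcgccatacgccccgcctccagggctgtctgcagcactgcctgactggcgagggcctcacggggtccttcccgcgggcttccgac

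Psmd2 held an ETS core on the opposite strand that began 26 bases before the RefSeq start, and Psmd11 held one 11 bases before it. Psmc2 carried a CCAAT box 28 bases before the more upstream of its RefSeq starts and an ETS core 84 bases before it. A further RefSeq start of Psmc2 had an ETS core 24 bases before it, in bases that GENCODE places in the gene and that are not printed. Psmb3 carried 2 CCAAT boxes, the first 85 bases before the start. Psmb5 held the antioxidant core 47 bases before the start, and Psmd12 held it 247 bases before. The ETS core of Psmd12, 17 bases before the RefSeq start, lies in bases that GENCODE places in the gene and that are not printed.

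The comparison of CAP with air asked whether inhaled particles alter the mRNA of EPCs. By edgeR's quasi-likelihood test, 0 of the 41 proteasome genes reached the threshold of 0.05 after adjustment, as did 0 of the 14792 genes (0%). The lowest adjusted p among the 41 was 0.468. By DESeq2, 24 of all genes passed (0.162%) and 0 of the 41, whose lowest adjusted p was 0.381. At an unadjusted p under 0.05 DESeq2 gave 2 of the 41, both higher in CAP, where 6.45% of all genes were. The estimates nevertheless lay mostly on one side. The log2 fold change of CAP over air was positive for 38 of the 41 (92.7%), against 48.8% of all genes, with a median of 0.21 against a median of -0.01 over all genes. The values ran between -0.02 and 0.53, so that the largest decrease was smaller than any standard error among the 41. At an unadjusted p under 0.05, 2 of the 41 were higher in CAP and 0 lower, where 5.89% of all genes were higher and 4.68% lower. In 10 of the 41 all 3 CAP libraries exceeded all 3 air libraries, where 8.44% of all genes did so, and in 0 of the 41 all 3 lay below, where 8.46% of all genes did. The 10 were Psma3, Psma4, Psmb7, Psmc2, Psmd1, Psmd2, Psmd3, Psmd12, Psmd13 and Psme2b.

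**Figure D1:**
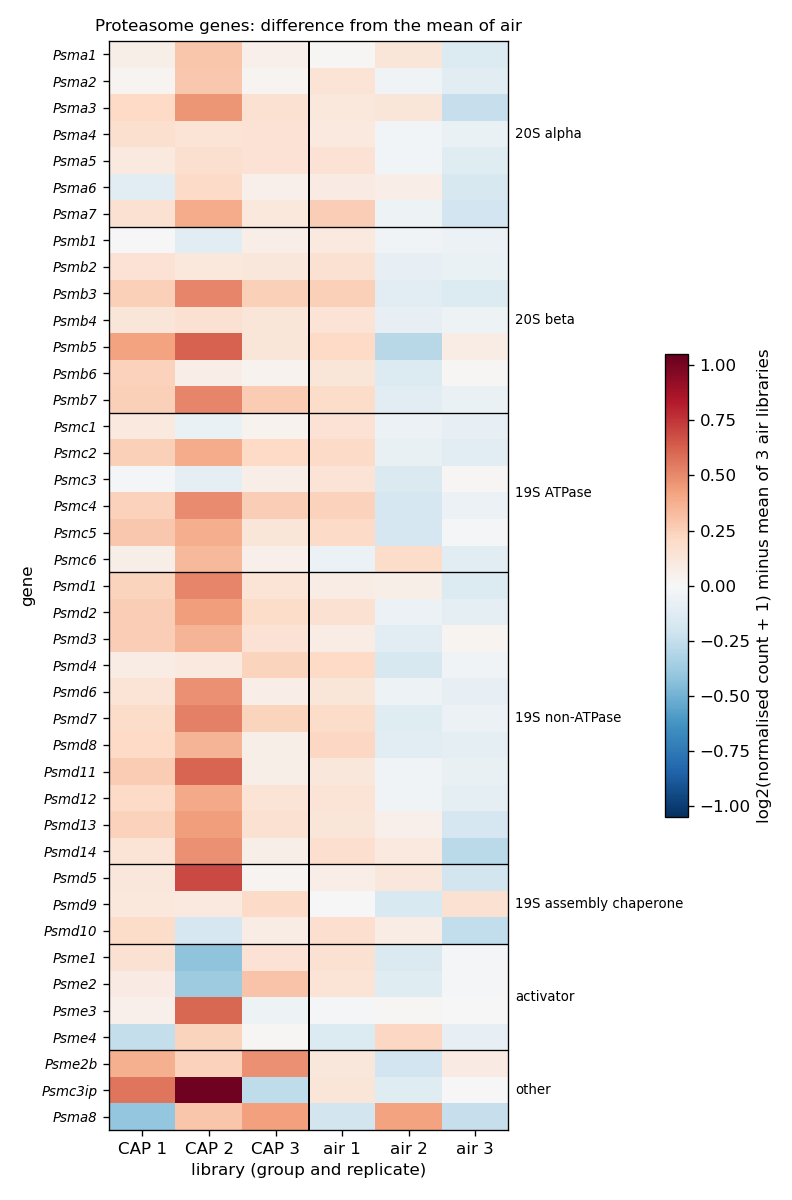
Difference of log2(normalised count + 1) from the mean of the 3 air libraries for each of the 41 genes (rows, ordered by class) in each library (columns, CAP to the left of air). CAP 2 is the highest library for 28 of the 41 genes, where it is so for 29.8% of all genes. In CAP 2, Psme1 and Psme2 are at -0.42 and -0.37, and air 1 is redder than air 2 and air 3.

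Seen library by library, CAP and air overlapped. The median difference from the air mean over the 41 genes was 0.16, 0.36 and 0.13 on the log2 scale in CAP 1, CAP 2 and CAP 3, and 0.14, -0.06 and -0.09 in air 1, air 2 and air 3. CAP 2 stood highest, and air 1 lay between CAP 1 and CAP 3. The 41 genes took 0.494%, 0.548% and 0.484% of all counts in the CAP libraries, against 0.487%, 0.428% and 0.418% in the air libraries. Their summed level was 5086 ± 344 CPM (counts scaled by the library total) in CAP and 4443 ± 373 in air (SD, n = 3 each). CAP 2 was the highest of the 6 libraries for 28 of the 41 genes, where it was the highest for 29.8% of all genes. Air 1 was the highest air library for 33 of the 41, where it was so for 34.6% of all genes.

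The median was 0.14 without CAP 2 and 0.30 without air 1. Without CAP 2, 38 of the 41 log2 fold changes were still positive, where 47.2% of all genes were, and 0 had an unadjusted p under 0.05, where 4.11% of all genes were higher in CAP at that level. Without air 1, 40 of the 41 were positive, where 49.1% of all genes were, and 9 had an unadjusted p under 0.05, all higher in CAP, where 5.21% of all genes were. The 12 proliferation genes, which mark dividing cells, summed to 29814, 53399 and 23193 normalised counts in CAP 1, CAP 2 and CAP 3, against 22167, 22862 and 21475 in air 1, air 2 and air 3. CAP 2 was thus the library with the most proliferation mRNA as well as the most proteasome mRNA, and it had the least macrophage and the least stromal marker mRNA. The stromal sum was 75948 in CAP 2 and at least 123695 in each other library. The proliferation sum of air 1 lay between those of air 3 and air 2, and each CAP sum exceeded each air sum. All 12 proliferation genes had positive log2 fold changes, with a median of 0.64 that was 0.25 without CAP 2, and 0 passed the threshold. The part of these differences in the proteasome values was not tested.

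**Figure D2:**
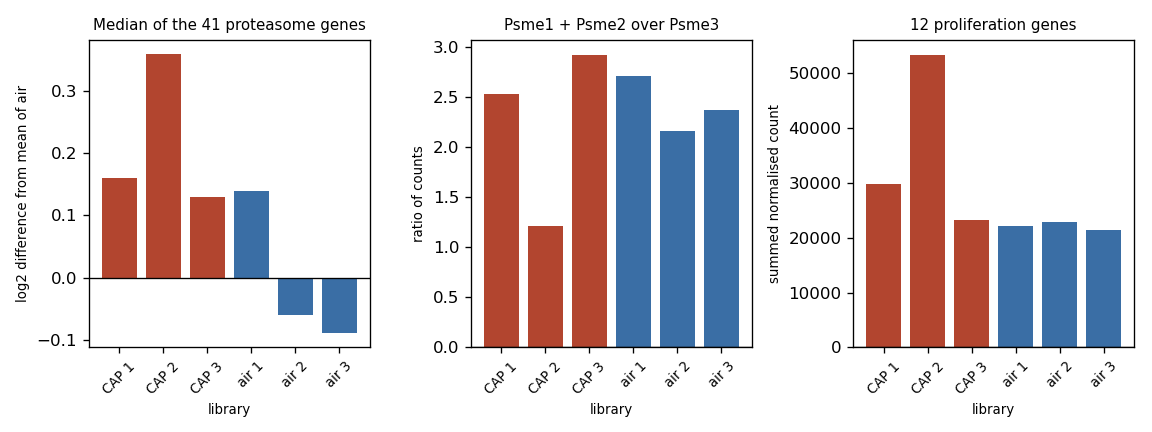
Values by library, with CAP 1 to 3 (red) to the left of air 1 to 3 (blue): the median log2 difference of the 41 genes from the mean of air, the ratio of Psme1 plus Psme2 counts to Psme3 counts, and the summed normalised count of 12 proliferation genes. CAP 2 stands highest in the proteasome median (0.36) and the proliferation sum (53399) and lowest in the ratio (1.21).

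Among the 7 alpha subunits, which form the outer rings of the barrel, all 7 log2 fold changes were positive, with a median of 0.13 and a range of 0.04 to 0.27. Psma3 had the largest, with 2490.0, 2982 and 2421 normalised counts in CAP against 2338, 2356 and 1829 in air. The groups did not overlap, although CAP 3 and air 2 lay close together. Its log2 fold change was 0.27 ± 0.15 (SE; adjusted p = 0.496, edgeR's quasi-likelihood test). Psma7 had 3695, 4329 and 3557 in CAP against 3944, 3179 and 2867 in air, and here air 1 exceeded both CAP 1 and CAP 3 (log2 fold change 0.21 ± 0.15, adjusted p = 0.581). Psma4 had 2761, 2698 and 2735 in CAP against 2632, 2408 and 2339 in air. Its 3 CAP libraries were nearly equal, all above air, and CAP 2 was the lowest of them (log2 fold change 0.15 ± 0.11, adjusted p = 0.589). The remaining alpha subunits, Psma1, Psma2, Psma5 and Psma6, had log2 fold changes of 0.13, 0.11, 0.13 and 0.04. CAP 2 lay above every air library for all 7, where it did so for 5041 of all 14792 genes. Air 3 was the lowest library for all 7, where it was so for 2182 of all 14792 genes.

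The 3 cutting subunits of the beta ring did not share 1 pattern. Psmb7, the subunit with trypsin-like activity, had the lowest unadjusted p of the 41 genes. It had 3267, 3912 and 3329 normalised counts in CAP against 3153, 2527 and 2623 in air. All CAP libraries were above all air libraries, and air 1 came close to CAP 1. The means were 3503 ± 356 in CAP and 2768 ± 337 in air (SD, n = 3 each), a log2 fold change of 0.34 ± 0.14 (SE), with an unadjusted p of 0.0344 and an adjusted p of 0.468. Psmb5, the chymotrypsin-like subunit and the main target of the drug bortezomib, had 2007, 2318 and 1642 in CAP against 1739, 1229 and 1592 in air. Its log2 fold change, 0.39 ± 0.18, was the largest of any core subunit, but CAP 3 was below air 1, the groups overlapped, and the adjusted p was 0.470. Psmb6, the caspase-like subunit, had 5168, 4604 and 4504 in CAP against 4799.5, 3984 and 4396 in air. Air 1 exceeded both CAP 2 and CAP 3 (log2 fold change 0.12 ± 0.12, adjusted p = 0.712).

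Of the 4 beta subunits that do not cut, Psmb3 had 2091, 2509 and 2099 in CAP against 2097, 1632 and 1601 in air. Its log2 fold change was 0.33 ± 0.15 (adjusted p = 0.470), and the overlap of the groups came down to air 1, which stood just above CAP 1. Psmb2 and Psmb4 had log2 fold changes of 0.12 and 0.14. Psmb1 had 5532, 5145 and 5798 in CAP against 5929.5, 5403 and 5297 in air, with CAP 2 below every air library, and a log2 fold change of -0.01 ± 0.11. The 7 beta subunits had a median of 0.14.

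**Figure D3:**
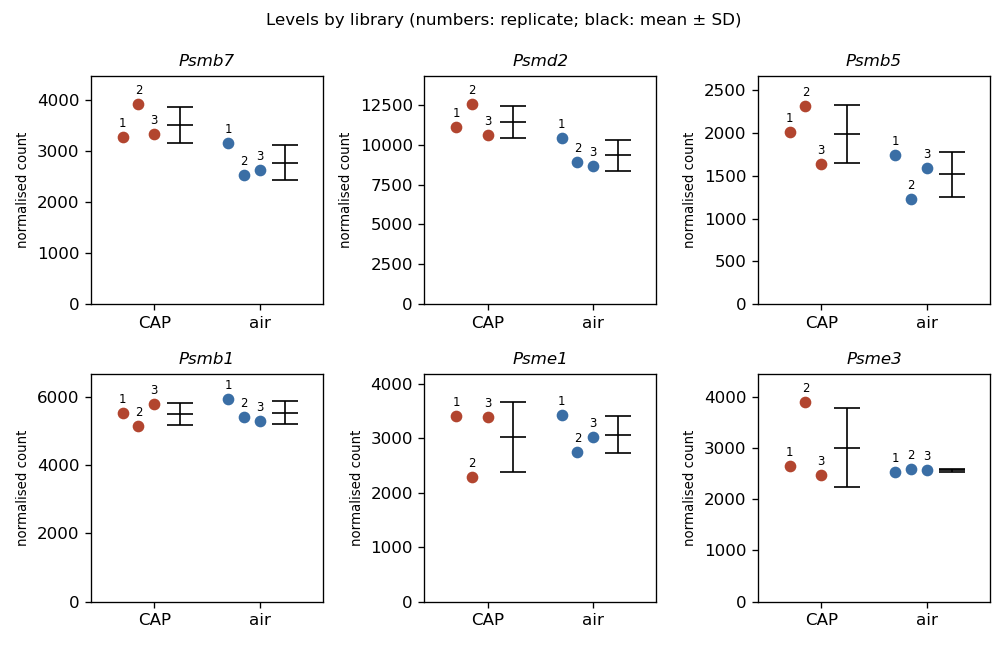
Normalised counts of 6 proteasome genes in each library (points, numbered by replicate) with the mean and SD of each group (black), CAP to the left of air, each axis starting at 0. The groups do not overlap for Psmb7 and Psmd2 and overlap for the other genes; in CAP 2, Psme1 was the lowest of the 6 libraries (2284) and Psme3 the highest (3888).

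The 6 ATPases, which form a single ring at the base of the 19S particle, had a median log2 fold change of 0.20. Psmc4 had 3206, 3859.6 and 3252 normalised counts in CAP against 3210.2, 2411 and 2611 in air. Air 1 stood just above CAP 1, and the log2 fold change was 0.33 ± 0.15 (adjusted p = 0.468). Psmc2 had 3921, 4320.0 and 3818 in CAP against 3790.4, 3119.8 and 3045 in air, with no overlap (log2 fold change 0.28 ± 0.13, adjusted p = 0.470). Psmc5 had 3744, 4007 and 3369 in CAP against 3535, 2709 and 3047 in air, and air 1 exceeded CAP 3 (log2 fold change 0.26 ± 0.14, adjusted p = 0.489). The other ATPases were nearer to 0. Psmc6 had a log2 fold change of 0.15 and Psmc1 one of 0.02. Psmc3 had 6478, 6093 and 6856 in CAP against 7192, 5908 and 6595 in air, and its log2 fold change of -0.02 ± 0.12 (adjusted p = 0.959) was the lowest of the 41. In CAP 2 the ATPases divided: Psmc2, Psmc4, Psmc5 and Psmc6 were above every air library, and Psmc1 and Psmc3 lay within the range of air.

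Of the 11 non-ATPase subunits of the 19S particle, all 11 had positive log2 fold changes, between 0.13 and 0.33, with a median of 0.26, and all 11 stayed positive when any 1 library was left out. The medians by library were 0.21, 0.44 and 0.14 in CAP 1, CAP 2 and CAP 3, against 0.14, -0.05 and -0.10 in air 1, air 2 and air 3. CAP 3 and air 1 were therefore equal at 2 decimals. Psmd2, the large scaffold to which ubiquitin shuttles dock, had 11143, 12583 and 10629.5 normalised counts in CAP against 10420.1, 8894 and 8679 in air. Every CAP library exceeded every air library. The means were 11452 ± 1013 in CAP and 9331 ± 949 in air (SD, n = 3 each), and the log2 fold change was 0.30 ± 0.13 (SE), with an unadjusted p of 0.0461 and an adjusted p of 0.468. Psmd7, the partner of the deubiquitinase Psmd14, had 3326, 4226 and 3421 in CAP against 3328, 2672 and 2805 in air, where air 1 stood just above CAP 1 (log2 fold change 0.32 ± 0.14, adjusted p = 0.468). Psmd3, a subunit of the lid of the particle, had 3690.4, 3941 and 3421 in CAP against 3263, 2834 and 3153 in air, with no overlap (log2 fold change 0.26 ± 0.12, adjusted p = 0.470).

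Psmd8, also of the lid, was the most abundant of the 41 genes per length of transcript. It had 10421, 11565 and 9372 in CAP against 10459.8, 8281 and 8415 in air, and air 1 exceeded CAP 1 and CAP 3 (log2 fold change 0.21 ± 0.14, adjusted p = 0.568). Psmd1, Psmd12 and Psmd13 did not overlap between the groups either, with log2 fold changes of 0.30, 0.25 and 0.28. Psmd11 had 0.33, Psmd6 had 0.24, and the deubiquitinase Psmd14 had 0.22. The lowest of the class was the ubiquitin receptor Psmd4, at 0.13. Its levels were 3783, 3839.6 and 4189.9 in CAP against 4153, 3173 and 3484 in air. It was the only one of the 11 for which CAP 2 was not above every air library. Of all 14792 genes, 5041 had CAP 2 above every air library.

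**Figure D4:**
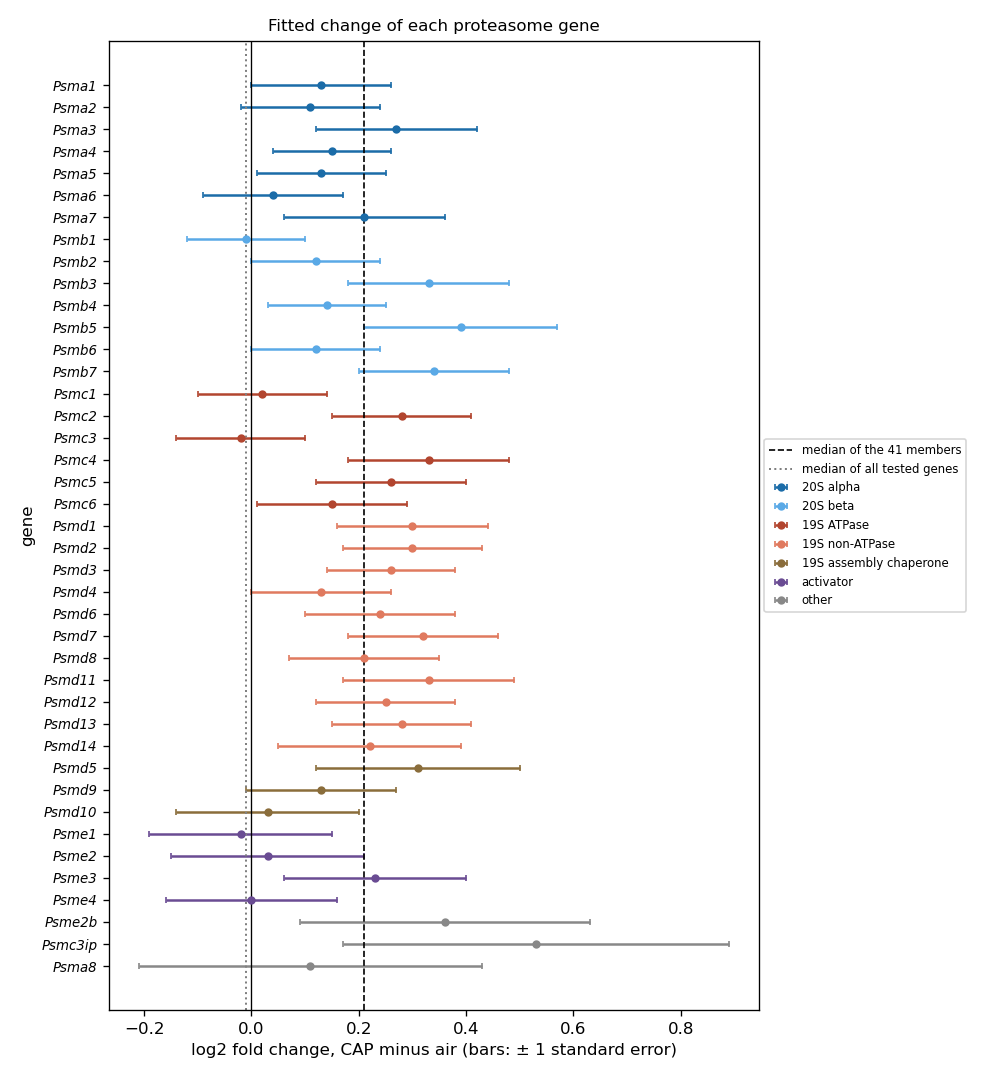
Fitted log2 fold change of CAP over air (edgeR; horizontal axis) for each of the 41 genes, with bars of 1 standard error, coloured by class. The dashed line is the median of the 41 genes (0.21) and the dotted line the median of all tested genes (-0.01); the 11 non-ATPase subunits all lie at 0.13 or above, and the activators Psme1, Psme2 and Psme4 lie near 0.

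By complex, the 17 subunits of the 19S particle had a median log2 fold change of 0.26 and the 14 of the 20S core one of 0.14, a difference that was not tested. The ratio of 20S to 19S counts was 0.599, 0.577 and 0.615 in CAP 1, CAP 2 and CAP 3, against 0.617, 0.632 and 0.620 in air 1, air 2 and air 3. All CAP values were below all air values, with CAP 3 and air 1 close together.

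The 3 chaperones that assemble the base of the 19S particle and then leave it showed unlike values. Psmd5 had 1761, 2624 and 1653 normalised counts in CAP against 1706, 1759 and 1420.3 in air. Its log2 fold change of 0.31 ± 0.19 (adjusted p = 0.548) rested on CAP 2 and was 0.06 without that library. Psmd9 had 1028, 1025 and 1096 in CAP against 954, 852 and 1069 in air (log2 fold change 0.13 ± 0.14, adjusted p = 0.714). Psmd10, also known as gankyrin, had 891, 688 and 827 in CAP against 887, 823 and 651 in air (log2 fold change 0.03 ± 0.17, adjusted p = 0.961), and CAP 2 was the lowest CAP library.

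In CAP 2 the 4 activators divided, with Psme1 and Psme2 below every air library and Psme3 and Psme4 above. Psme1 and Psme2 form 1 ring, are induced by interferon gamma and open the barrel without ubiquitin. Psme1 had 3399, 2284 and 3389 normalised counts in CAP against 3418, 2748 and 3027 in air, and its log2 fold change was -0.02 ± 0.17 (adjusted p = 0.974). Psme2 had 3301, 2408 and 3839 in CAP against 3437, 2839.8 and 3077 in air (log2 fold change 0.03 ± 0.18, adjusted p = 0.958). Psme3, which forms a nuclear activator of its own, had 2647, 3888 and 2475 in CAP against 2531, 2589.9 and 2571 in air. CAP 2 was far above the other 5 libraries, which lay close together. The log2 fold change was 0.23 ± 0.17 (adjusted p = 0.608) with all libraries and -0.01 without CAP 2. The ratio of Psme1 plus Psme2 to Psme3 was 2.53, 1.21 and 2.92 in CAP 1, CAP 2 and CAP 3, against 2.71, 2.16 and 2.37 in air 1, air 2 and air 3. Psme4, the activator linked to histone degradation, had 3303, 4614 and 3948 in CAP against 3566, 4586 and 3701 in air, with CAP 2 just above air 2, and a log2 fold change of 0.00 ± 0.16 (adjusted p = 0.998).

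The immunoproteasome subunits, which the choice of genes left out, were also at their lowest in CAP 2. Psmb8 had 3360.3, 1782 and 3721 normalised counts in CAP against 3024, 2559.7 and 3174 in air, Psmb9 had 989, 696 and 1106 against 999.9, 995 and 1179, and Psmb10 had 1979, 1094 and 2271 against 1664, 1491 and 1970.3. Their log2 fold changes were 0.02, -0.19 and 0.06, none of which passed the test. The ratio of their counts to those of Psmb5, Psmb6 and Psmb7 was 0.606, 0.330 and 0.749 in CAP 1, CAP 2 and CAP 3, against 0.587, 0.652 and 0.734 in air 1, air 2 and air 3. The immunoproteasome and Psme1 and Psme2 were thus low in the library in which most constitutive subunits were high, and the other CAP libraries did not share this.

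**Figure D5:**
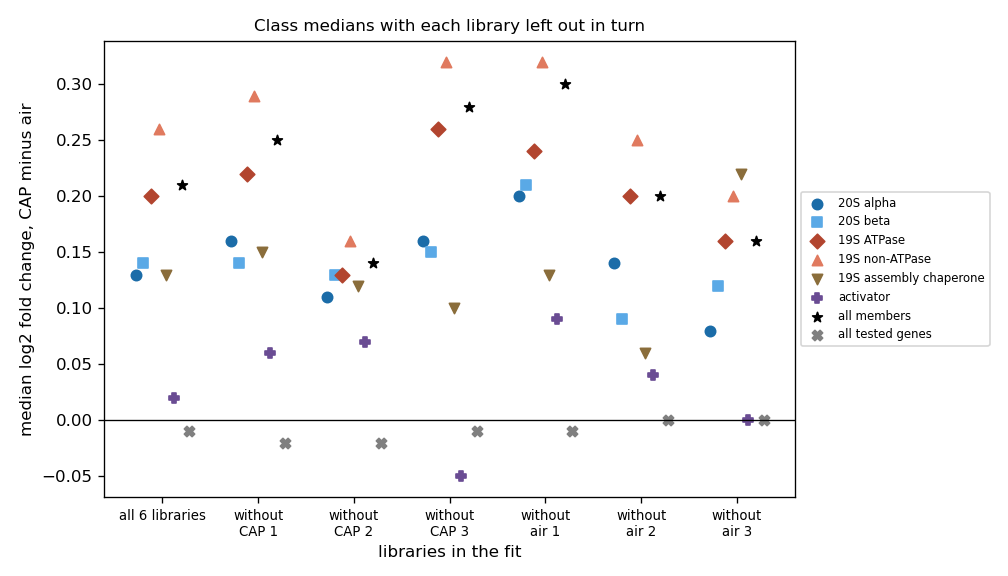
Median log2 fold change of CAP over air for each class of proteasome genes, for all 41 and for all tested genes, in the fit of all 6 libraries and with each library left out in turn. The median of the 41 genes stays between 0.14 (without CAP 2) and 0.30 (without air 1), the median of all genes between -0.02 and 0.00, and the activators change sign without CAP 3 (-0.05).

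Across the 38 genes, levels per length of transcript differed more than the exposure groups did. In CPM per kb of the principal transcript, averaged over the 6 libraries, the 14 core subunits lay between 29.1 for Psma3 and 197 for Psmb6, with a median of 92.3. The 17 subunits of the 19S particle lay between 31.7 for Psmd11 and 218 for Psmd8, with a median of 70.8. These values depend on the length used. With the length of all annotated exons Psmd8 was at 109.8, still the highest of the 19S subunits, and the highest core subunit was Psma6 at 96.4 in place of Psmb6. The chaperones Psmd5, Psmd9 and Psmd10 were at 14.3, 13.3 and 19.1 CPM per kb of principal transcript. Psme1 and Psme2 were at 94.2 and 113, above Psme3 at 36.0 and Psme4 at 21.0.

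The 3 genes set apart had low counts. Psma8, a testis-specific alpha subunit, had 99.9, 162 and 179.7 normalised counts in CAP against 117, 178 and 113 in air and was the lowest of the 41 per length, at 2.88 CPM per kb (log2 fold change 0.11 ± 0.32, adjusted p = 0.908). Psmc3ip, a protein of meiotic recombination and no part of the proteasome, had 130.3, 180.4 and 72.9 in CAP against 96.5, 80.6 and 88.4 in air. It had the largest log2 fold change of the 41, 0.53 ± 0.36 (adjusted p = 0.574), with CAP 3 below every air library. Psme2b, a near copy of Psme2 whose reads can be shared with it, had 111, 102 and 121 in CAP against 93.5, 74.5 and 91.5 in air (log2 fold change 0.36 ± 0.27, adjusted p = 0.597). Without these 3 genes the median was again 0.21, and 35 of 38 log2 fold changes were positive.

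Genes outside the choice that serve the proteasome gave no call either. The 19S subunits Adrm1, a ubiquitin receptor, and Sem1 had log2 fold changes of 0.16 and -0.10. Of the 7 genes for core assembly and nuclear import that were measured, 6 were positive, with a median of 0.20 that was 0.06 without CAP 2. The 3 of lowest p were Psmg2, a chaperone that pairs with Psmg1 (0.32), Ipo9 (0.20) and Psmg1 (0.26). Of 10 regulators that bind the proteasome, 8 were positive, with a median of 0.11 that was -0.02 without CAP 2. Ube3c, a ligase that extends ubiquitin chains on stalled substrates, had the lowest p of these. It had 2199, 2856 and 2223 normalised counts in CAP against 1765, 1941 and 1726 in air, with no overlap, and a log2 fold change of 0.42 ± 0.14 (unadjusted p = 0.0160, adjusted p = 0.468). Fbxo7 did not overlap in the other direction, at 591, 467 and 567 in CAP against 735, 738 and 609 in air (log2 fold change -0.36 ± 0.17, adjusted p = 0.472). Uchl5, a deubiquitinase of the 19S particle, had a log2 fold change of 0.37.

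Of 12 genes for ubiquitin, its activating enzymes and the shuttles to the proteasome, 10 were positive, with a median of 0.18 that was 0.10 without CAP 2. Ubqln4, a shuttle, had 1743, 2348 and 1738 normalised counts in CAP against 1503, 1363 and 1317 in air, with no overlap (log2 fold change 0.48 ± 0.15, unadjusted p = 0.0132, adjusted p = 0.468). The main activating enzyme Uba1 had 15395, 15897 and 14933 in CAP against 14369, 12132 and 12295 in air, again with no overlap (0.25 ± 0.12, adjusted p = 0.472). Nploc4, a cofactor of the unfoldase Vcp, had a log2 fold change of 0.24.

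Nfe2l1, a factor that drives subunit transcription, was lowest in CAP 2, the library with the most subunit mRNA. It had 10796, 8147 and 9903 normalised counts in CAP against 9968, 8800.3 and 9350.2 in air (log2 fold change 0.04 ± 0.13, adjusted p = 0.931). Among the other libraries, it was higher in CAP 1, air 1 and CAP 3 than in air 2 and air 3, as was the median of the 41 genes. Between air 2 and air 3 the orders differed: Nfe2l1 was higher in air 3, and the median was higher in air 2 (-0.06 against -0.09). A link between Nfe2l1 and the 41 genes was not tested. Nfe2l1 is controlled mainly after transcription, by processing that includes Ngly1 and Ddi2. Ngly1 had a log2 fold change of -0.18 and Ddi2 one of -0.22. Nfe2l2 had 0.00. Of the 8 genes of this list, Maff, a small partner protein of these factors, had the lowest p, with 441, 1058 and 372 in CAP against 352, 331 and 279.6 in air. CAP 2 alone was far above the rest (log2 fold change 0.96 ± 0.38, unadjusted p = 0.0335, adjusted p = 0.468), and the value was 0.34 without it. Mafk had 0.34.

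Some of the named genes share exon bases with another gene. In GENCODE vM21, exons of 3 of the 41 genes overlap another gene on the same strand, those of Psmb5, Psmd1 and Psme2b, and exons of 10 overlap a gene on the other strand, among them those of Psma4, Psmb7, Psmc3, Psmd3, Psmd9 and Psme1. How strand was set in the counting is unknown here, and reads of these overlaps cannot be assigned with certainty.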

How the data were processed

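Total RNA of 6 EPC cultures was sequenced as single-end reads from a stranded polyadenylated library. The authors joined the lanes without trimming, used STAR 2.6 for alignment to mm10 and HTSeq 0.10.0 for counting, and deposited raw counts per gene. Which annotation release was used, and how strand and multi-mapped reads were handled, was not given in the sources used here.

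Gene names came from GENCODE vM21, which held 99.88% of the gene IDs. Counts were scaled by relative log expression (RLE), only genes with a total of at least 10 were kept, and the comparison of CAP with air used the quasi-likelihood test of edgeR 4.0.16 in R 4.3.3 with Benjamini-Hochberg adjustment over all genes and a threshold of 0.05. Standard errors were obtained as the size of the log2 fold change over the root of edgeR's F. Log2 values of single libraries had a pseudocount of 1. Alternatives were TMM scaling, no count filter, filterByExpr, DESeq2 1.42.0, limma-voom (limma 3.58.1), other quasi-likelihood fits, a block for the replicate number, and fits that each lacked 1 library. The scripts were tested on simulated data.

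The proteasome genes, pathway lists and markers were chosen with earlier results of these data known. Values by library were given for the cutting subunits, the 3 genes of lowest p in each class, those with an unadjusted p under 0.05, the extremes per length and the lowest log2 fold change; Psmb1, Psmd4 and Psme4 were added after their values were seen. From each list up to 3 genes of lowest p were named. Adrm1, Sem1, Nfe2l1, Nfe2l2 and Ngly1 were named for their roles. The result of 1 marker list is not reported here.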

Additional observations from a re-analysis of the deposited data

How the results depend on the processing

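The median log2 fold change of the 41 genes was 0.21 under every alternative with all 6 libraries and between 0.14 and 0.30 with 1 library left out. No proteasome gene passed the threshold under any alternative. Over all genes edgeR called 0 (1564 at an unadjusted p under 0.05), DESeq2 called 24 (22 higher and 2 lower in CAP), and DESeq2 without CAP 2, chosen after seeing the data, called 51 (33 higher and 18 lower). The count of proteasome genes with every CAP library above every air library was 10 with all libraries, 9 with TMM scaling, and between 10 and 25 with 1 left out. It was 17 without CAP 3, where 17.1% of all genes did so, and 25 without air 1, where 16.3% did. Proteasome genes with an unadjusted p under 0.05 numbered between 0 and 9, and the share of all genes moved as well. The number was 0 without air 3, where 2.19% of all genes were higher in CAP at that level. It was 6 without CAP 3, where 9.45% of all genes were, and 9 without air 1, where 5.21% were. With 1 library left out the log2 fold change changed sign for Psmd10 (-0.09 to 0.12), Psmc3 (-0.09 to 0.05), Psme1 (-0.11 to 0.14), Psme2 (-0.13 to 0.19), Psme3 (-0.01 to 0.35), Psme4 (-0.13 to 0.12), Psma6 (-0.04 to 0.12), Psmb1 (-0.05 to 0.04), Psmc1 (-0.02 to 0.10) and Psma8 (-0.06 to 0.36), and by DESeq2 without CAP 2 it was 0.02 for Psmc3, 0.14 for Psme1 and -0.01 for Psme3. The cause was not tested. Libraries with the same number in their titles did not all deviate together (correlations of -0.02, 0.09 and 0.17), and were not treated as pairs. The column names carry other numbers, and whether these stand for animals is not stated. The only number shared between the groups there joins CAP 2 and air 3 (correlation of -0.20). A replicate block gave 0 calls, 1899 genes at an unadjusted p under 0.05 and a proteasome median of 0.21.

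With 3 mice and 1 cage a group, the spread between libraries, which exceeded counting error, limits the values. Each mouse gave 1 culture and 1 library, so that differences between mice and between cultures cannot be told apart.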
